A study of Mus musculus with 8 samples.

Results

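Cells of the lung hold to each other and seal the airspace and the vessel wall through junctions, and the genes of 4 such structures were followed here: claudins, Ocln, F11r and the Tjp scaffolds of tight junctions, cadherins, desmosomal cadherins and plakophilins, and connexins. Members were the rows of the deposited gene table whose symbol is Cldn, Cdh, Tjp, Gja, Gjb, Gjc, Dsg, Dsc or Pkp followed by a digit, or Ocln or F11r, with a mean of at least 1 CPM (counts per 1000000 reads) over the 8 libraries. Of 42 rows with such names, 33 were members, out of 15728 genes in the table, and 31 of them are described here. Cldn18, Gja4 and Gja5 were left out of the set, and 6 rows fell below the mean. These were 11 claudins, 4 other tight junction genes, 8 cadherins, 4 desmosome and plakophilin genes and 4 connexins. At the edge of the threshold, Cdh3 (1.01 CPM) and Gjb2 (1.06 CPM) were just inside, and Gjb1 (0.871 CPM), Cdh24 (0.66 CPM) and Gjb5 (0.566 CPM) just outside. The row listed by the authors as Cldn25 has the current symbol Cldnd1, a claudin-domain gene, by its Ensembl identifier.

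The libraries came from whole lungs of 4 triply n/i/eNOSs-/- mice, in which all 3 nitric oxide synthase genes (neuronal, inducible and endothelial) are deleted, and from 4 wild type mice. All were 4 weeks old, unexposed and labelled C57BL/6J, and the labels give no sex, litter or collection time. The assay was CAGE (cap analysis of gene expression). It reads the capped 5′ ends of transcripts, so that a value does not scale with transcript length and levels of different genes can be set side by side. Nothing in the labels ties the 2 genotypes to one litter. The p-values set the genotype difference against the spread within each genotype, and speak for these 8 animals only.

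Tight junctions are strands of claudins in the membrane, which decide which ions and solutes pass between cells. Occludin and other tetraspan MARVEL proteins lie in the same strands, and the ZO scaffolds encoded by the Tjp genes tie them to actin. Adherens junctions and desmosomes hold cells together through cadherins, bound inside the cell to catenins and plakophilins, and connexins form channels from cell to cell. In the alveolus, type 1 and type 2 epithelial cells express several claudins, and the capillary endothelium uses its own claudin and cadherin, Cldn5 and Cdh5.

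The starts of 17 members were found by symbol in a RefSeq promoter table of the build GRCm38.p6. The 250 bases before the RefSeq start are shown for genes picked by hand. These are Cldn1, Cldn3 and Cldn4, claudins that fell, Cldn7, a claudin that rose, and Tjp1, the scaffold gene with the highest level. Cldn12, which also fell, is not shown. Cldn3 and Cldn4 are neighbours among the genes of the table. For Cldn7, which has 2 starts in the promoter table, the first is shown. Capitals mark 3 motifs searched on both strands: CACCTG, bound by Snail and Zeb factors, GGGCGG, bound by Sp factors, and TATAAA, the TATA box.
Cldn1, chr16:26371840-26372089, strand minus: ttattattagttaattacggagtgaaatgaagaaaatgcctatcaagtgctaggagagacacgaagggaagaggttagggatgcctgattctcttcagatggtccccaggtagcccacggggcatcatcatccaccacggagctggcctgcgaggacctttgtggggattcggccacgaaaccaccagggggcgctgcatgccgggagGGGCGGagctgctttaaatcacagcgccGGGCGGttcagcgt
Cldn3, chr5:134985964-134986213, strand plus: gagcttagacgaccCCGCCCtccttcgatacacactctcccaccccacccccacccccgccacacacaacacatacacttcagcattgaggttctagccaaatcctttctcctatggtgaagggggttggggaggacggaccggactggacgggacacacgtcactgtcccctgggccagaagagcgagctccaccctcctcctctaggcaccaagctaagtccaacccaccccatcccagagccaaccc
Cldn4, chr5:134946935-134947184, strand minus: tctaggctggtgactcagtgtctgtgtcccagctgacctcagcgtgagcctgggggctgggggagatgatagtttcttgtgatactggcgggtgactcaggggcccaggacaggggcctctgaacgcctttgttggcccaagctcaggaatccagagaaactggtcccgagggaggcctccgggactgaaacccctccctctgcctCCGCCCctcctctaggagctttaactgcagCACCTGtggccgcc
Cldn7, chr11:69964529-69964778, strand plus: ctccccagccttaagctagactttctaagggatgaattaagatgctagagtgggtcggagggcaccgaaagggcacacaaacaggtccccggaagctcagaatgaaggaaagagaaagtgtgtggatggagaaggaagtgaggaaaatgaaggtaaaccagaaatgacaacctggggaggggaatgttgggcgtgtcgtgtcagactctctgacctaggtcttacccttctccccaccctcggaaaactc
Tjp1, chr7:65371245-65371494, strand minus: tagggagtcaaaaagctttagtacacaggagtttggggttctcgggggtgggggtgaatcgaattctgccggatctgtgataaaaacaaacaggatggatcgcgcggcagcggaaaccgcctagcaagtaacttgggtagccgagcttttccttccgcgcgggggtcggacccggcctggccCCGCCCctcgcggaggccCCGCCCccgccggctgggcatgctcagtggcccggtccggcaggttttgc

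The motif CACCTG was found before the start of Cldn4 and not in the other 4 windows shown. It was present before 4 of the 17 members (23.5%), and before 17.1% of 27025 genes in windows of the same length. GGGCGG lay before Cldn1, Cldn3, Cldn4 and Tjp1 and was present in 10 of 17 members (58.8%), and in 32.9% of all genes. TATAAA was in none of the 17 windows and in 13% of all. The 27025 genes were taken whatever their level in lung, whereas members have a mean of at least 1 CPM. The shares are therefore set against an unlike background. These matches describe letters in a window and no binding was measured. No overlap between matches of different motifs occurred in the 5 windows.

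The knocked out genes were checked first. Nos3, the endothelial isoform, had 5.56, 8.32, 8.83 and 6.76 CPM in knockout replicates 1 to 4, against 18.2, 22.8, 19.8 and 18.6 CPM in wild type replicates 1 to 4. No knockout library reached the wild type range (log2 fold change -1.38, limma adjusted p = 4.58e-05). The position of the deletion against the CAGE starts of Nos3 is unknown here, so this is a weak check, and Nos1 and Nos2 were not analysed here. Library totals, recovered from the steps of the CPM values, were 13014134 to 15096188 reads in the knockout and 15598154 to 18593913 reads in wild type, so every knockout library was shallower than every wild type library. The first principal component (62.5% of the variance) parted the genotypes, and the second (9.5%) spread the knockout libraries, from 16.8 for knockout replicate 1 and 12.3 for replicate 2 to -3.83 for replicate 3 and -21.7 for replicate 4. The 7 alveolar type 2 genes summed to 47170 to 59000 CPM in the knockout and 79160 to 95700 CPM in wild type. Most of that sum was Sftpc, with means of 40740 CPM in the knockout and 75410 CPM in wild type. The 6 alveolar type 1 genes summed to 7464 to 8220 CPM in the knockout and 6599 to 7153 CPM in wild type. Most of it was Hopx (means 5804 and 4555 CPM). Of the 6, Hopx and Rtkn2 were called higher, Pdpn and Emp2 lower, and Ager and Aqp5 were not called.

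Of the 31, 30 had at least 1 CPM in at least 4 libraries and were tested. With limma, 7 were higher and 6 lower in the knockout at an adjusted p under 0.05, together 13 of 30 (43.3%). Across all 14065 genes tested 30.9% were called, 16.6% higher and 14.3% lower. The genotypes did not overlap for 9 of the 30, and for 31.2% of all genes. The median log2 fold change of the members was -0.07 (median absolute value 0.24), beside 0.01 (0.19) over all genes tested. All changes of the members were below 1 on the log2 scale in size, from -0.64 for Cldn1 to 0.73 for Cdh16. Log2 fold changes are knockout minus wild type on log2(CPM + 0.5), with the standard error (SE), and understate the change of genes with few reads. Of the 13 called genes, 7 kept the call under every alternative that tested them, namely Cldn7, Ocln, Tjp1, Cdh16, Cldn1, Cldn4 and Cldn12. Cdh16 was not tested under the filter at 5 CPM.

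**Figure D1:**
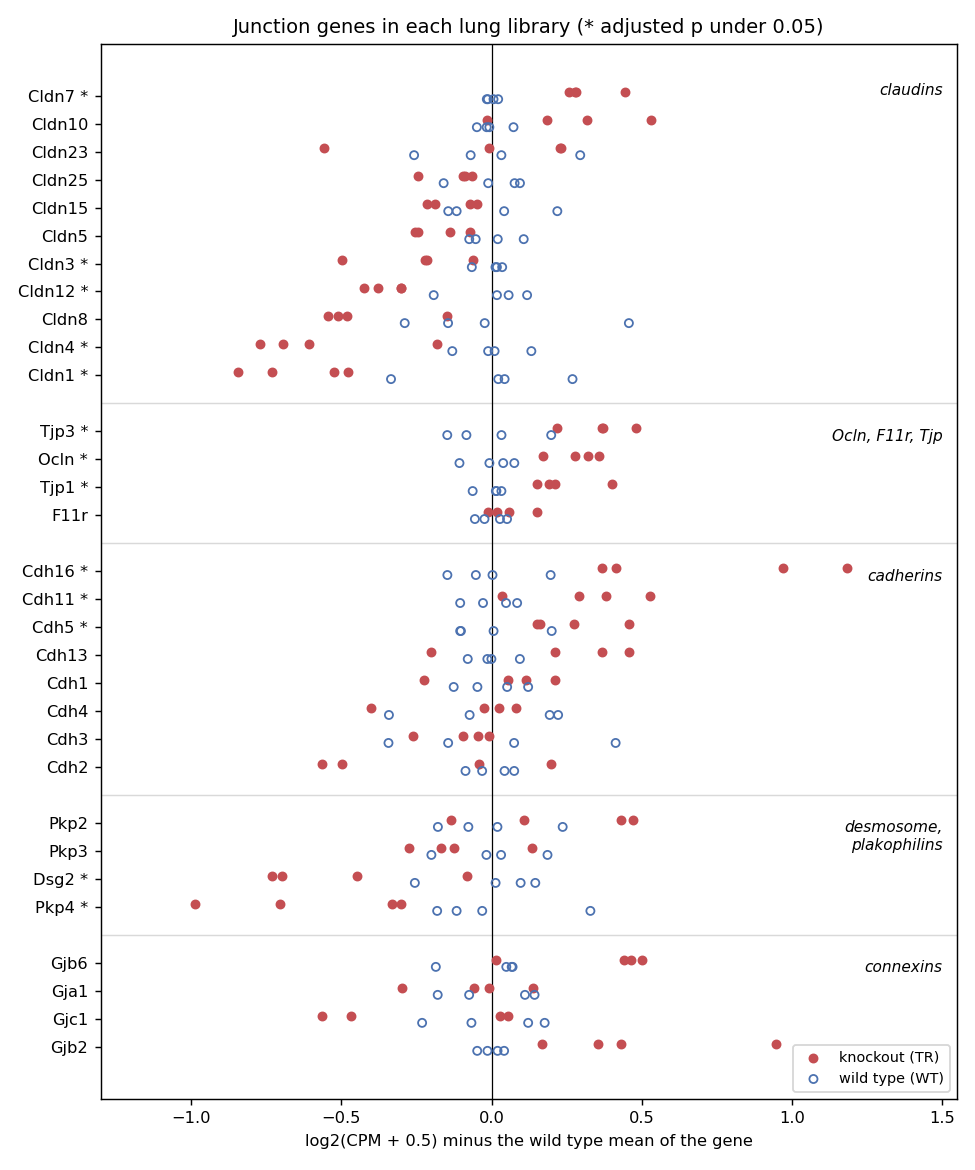
Level of each junction gene in each library as log2(CPM + 0.5) minus the wild type mean of that gene, with knockout libraries as filled red points above and wild type libraries as open blue points. Genes are grouped by family and ordered by fold change, and stars mark an adjusted p under 0.05. Ocln, Tjp1 and Tjp3 lie to the right of 0 in all knockout libraries, and Cldn1, Cldn4 and Cldn12 to the left.

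The claudins went both ways. Of 11 tested, 1 rose (Cldn7) and 4 fell (Cldn1, Cldn3, Cldn4 and Cldn12), and 6 were not called. Those called were 45.5%, beside 30.9% of all genes. The largest fold change was that of Cldn1, which seals the barrier of skin and other stratified epithelia. Cldn1 had 3.58, 4.6, 4.76 and 3.92 CPM in the knockout libraries, against 6.94, 7.05, 5.31 and 8.33 CPM in the wild type libraries. No knockout library reached the lowest wild type library, and Cldn1 fell by 0.64 on the log2 scale (1.56-fold lower, limma adjusted p = 0.00657, SE 0.14).

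Cldn4, a barrier claudin of the alveolar and airway epithelium, had 5.43, 3.45, 3.66 and 3.92 CPM in the knockout, against 6.88, 5.65, 6.18 and 6.28 CPM in wild type. Knockout replicate 1 lay close to the lowest wild type library and the other 3 well below it. Cldn4 fell by 0.56 on the log2 scale (limma adjusted p = 0.0106, SE 0.14). Its neighbour Cldn3, a claudin of alveolar type 2 cells with a much higher level, had 154, 114, 139 and 138 CPM in the knockout, against 165, 163, 163 and 154 CPM in wild type. Knockout replicate 1 just reached the lowest wild type library, wild type replicate 4. Cldn3 fell by 0.25 on the log2 scale (limma adjusted p = 0.0423, SE 0.08). The call of Cldn3 ended on leaving out any single library but knockout replicate 1, and with edgeR on recovered reads (adjusted p across alternatives between 0.0128 and 0.0949). The summed level of the 7 alveolar type 2 markers, most of it Sftpc, was also lower in every knockout library. Of the 7, 3 were called lower (Sftpc, Sftpa1 and Slc34a2) and 1 higher (Abca3), and Sftpb, Sftpd and Lamp3 were not called. The part of these markers in the values of Cldn3 and Cldn4 was not tested. The 5 ciliated cell markers of the airway summed to 558 to 681 CPM in the knockout and 666 to 716 CPM in wild type. Most of that sum was Tppp3 (means 504.5 CPM in the knockout and 498.2 CPM in wild type), which was not called. Of those 5, 3 fell without overlap (Foxj1, Rsph1 and Ccdc39, by 0.72, 0.80 and 0.76 on the log2 scale) and 0 rose, and their part was not tested either. Part of Cldn3 overlaps Wbscr25 on the opposite strand, and no source used here says whether the counting used strand.

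Cldn12, a widely expressed claudin, had 10.1, 9.2, 9.52 and 10.1 CPM in the knockout, against 13.6, 12.7, 13.1 and 10.9 CPM in wild type. The knockout libraries lay within about 1 CPM of each other and all below wild type, with a log2 fold change of -0.35 (limma adjusted p = 0.0141, SE 0.09). Cldn7 went the other way. It is an epithelial claudin found along the lateral membrane, and had 192, 195, 219 and 195 CPM in the knockout, against 160, 162, 159 and 163 CPM in wild type. The wild type libraries were nearly equal and all knockout libraries were above them. Cldn7 rose by 0.31 on the log2 scale (1.24-fold, limma adjusted p = 0.00234, SE 0.06), the smallest adjusted p among the members.

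**Figure D2:**
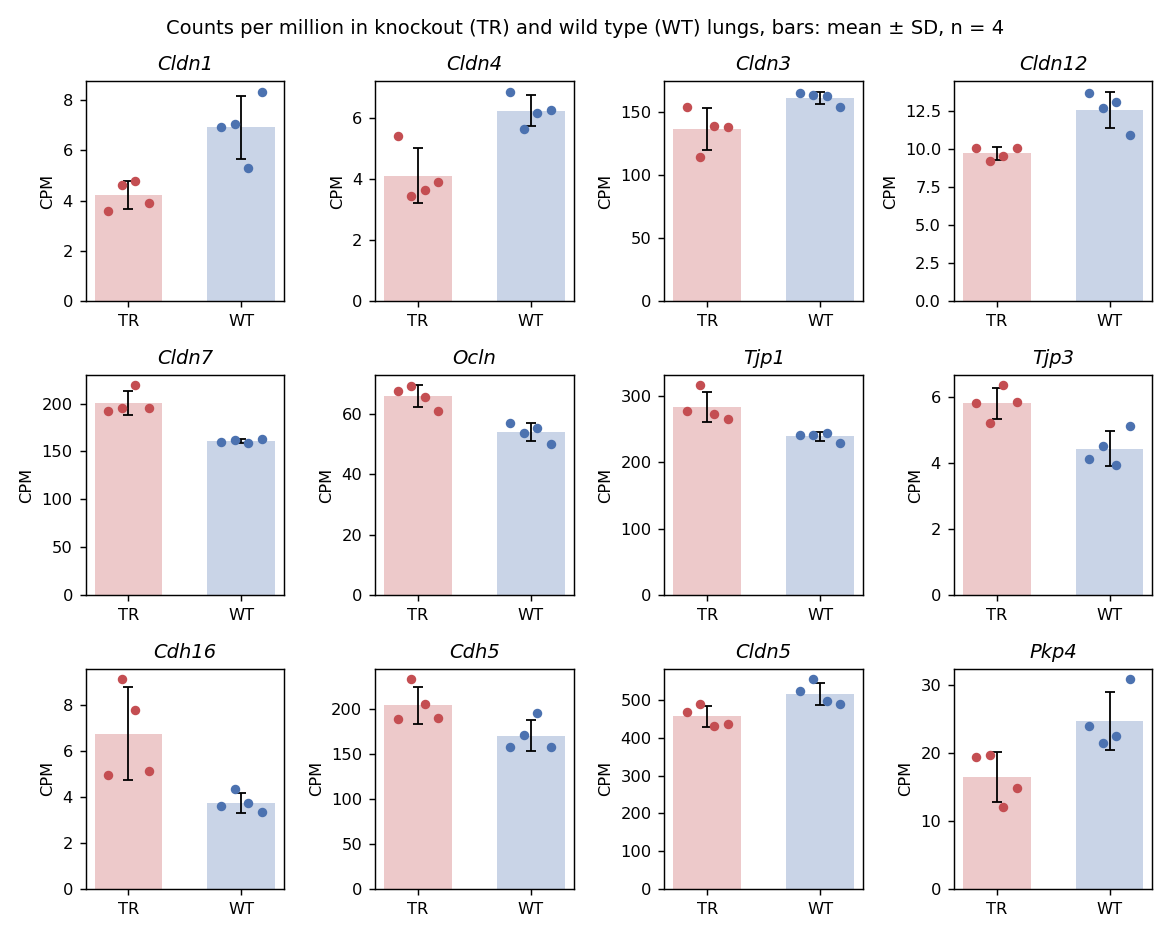
CPM of 12 junction genes in knockout (TR, left) and wild type (WT, right) lungs, with points for the 4 libraries of each genotype, bars for the mean and error bars for the SD. Cldn1, Cldn4 and Cldn12 are lower and Cldn7, Ocln, Tjp1, Tjp3 and Cdh16 higher in the knockout without overlap.

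Ratios within a library do not depend on the scaling between libraries, and restate here the opposite calls of Cldn7 and of Cldn3 and Cldn4. The ratio of Cldn3 to Cldn7 was 0.802, 0.584, 0.634 and 0.707 in the knockout libraries, against 1.03, 1.01, 1.02 and 0.942 in the wild type libraries. The ratio of Cldn4 to Cldn7 averaged 0.0207 ± 0.00524 in the knockout and 0.0388 ± 0.00335 in wild type (SD, n = 4 each). Neither ratio overlapped between the genotypes. The ratio of Cldn4 to Cldn3, which both fell, did overlap, at 0.0352, 0.0302, 0.0263 and 0.0284 in the knockout, against 0.0417, 0.0346, 0.038 and 0.0408 in wild type. Of 6 ratios computed in all, 4 did not overlap. The pairs were chosen after their values were seen, so the ratios are a description with no test.

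Cldn5, the claudin of endothelium, had the highest level of the members. It had 468, 491, 432 and 435 CPM in the knockout, against 523, 555, 497 and 489.6 CPM in wild type. Only knockout replicate 2 reached into the wild type range. The log2 fold change of Cldn5 was -0.18 (95% interval -0.32 to -0.04, limma adjusted p = 0.0554), and it passed the threshold under TMM or median-ratio scaling, with edgeR, DESeq2 or the replicate number as a block, and without knockout replicate 2 (adjusted p across alternatives between 0.00948 and 0.147).

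The remaining claudins were not called. Cldn10, a pore-forming claudin expressed in club cells, had 115, 91.3, 133 and 105 CPM in the knockout, against 89.1, 97, 91.2 and 91.7 CPM in wild type. Its log2 fold change of 0.25 (95% interval 0.04 to 0.47) had a limma adjusted p of 0.0723, which passed without knockout replicate 2, the lowest knockout library (adjusted p across alternatives between 0.0124 and 0.184). Cldn8, a barrier claudin best known in the kidney, averaged 3.08 ± 0.483 CPM in the knockout and 4.36 ± 1.17 CPM in wild type (limma adjusted p = 0.0799). Cldn15, a cation pore of the gut epithelium, averaged 8.83 ± 0.543 CPM in the knockout and 9.75 ± 1.22 CPM in wild type. The gene listed as Cldn25 averaged 51.9 ± 2.93 CPM in the knockout and 56.6 ± 4.48 CPM in wild type. Cldn23 averaged 2.95 ± 0.799 CPM in the knockout and 2.97 ± 0.563 CPM in wild type, with a 95% interval of the log2 fold change of -0.45 to 0.40. Summed over the 11 claudins, the level was 989 ± 29.1 CPM in the knockout and 1030 ± 38.4 CPM in wild type.

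Among the other tight junction members, 3 of 4 rose (Ocln, Tjp1 and Tjp3), beside 16.6% of all genes. None fell, and F11r was not called. Ocln, the MARVEL protein occludin, had 67.5, 69.2, 65.4 and 60.8 CPM in the knockout, against 56.8, 53.6, 55.4 and 50 CPM in wild type. All knockout libraries were above all wild type libraries, and Ocln rose by 0.28 on the log2 scale (limma adjusted p = 0.00892, SE 0.07).

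Tjp1, the main ZO scaffold of epithelium and endothelium, had 277, 316, 273 and 266 CPM in the knockout, against 242, 242, 245 and 229 CPM in wild type. Knockout replicate 2 was the highest, and none of the 4 reached down to wild type (log2 fold change 0.24, SE 0.06, limma adjusted p = 0.0158). Tjp3, an epithelial scaffold with a low level, had 5.83, 5.21, 6.35 and 5.84 CPM in the knockout, against 4.13, 4.52, 3.93 and 5.13 CPM in wild type. The lowest knockout library, replicate 2, lay just above the highest wild type library, replicate 4.

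Tjp3 rose by 0.36 on the log2 scale (limma adjusted p = 0.034, SE 0.11). Its call ended under TMM or median-ratio scaling, with edgeR, DESeq2 or the replicate number as a block, and on leaving out knockout replicate 1, 3 or 4, or any of wild type replicates 1, 2 or 3 (adjusted p across alternatives between 0.0249 and 0.0924). Tjp3 also overlaps Apba3 on the opposite strand. F11r, the adhesion molecule JAM-A, had 192, 180, 171 and 175 CPM in the knockout, against 179, 166, 176 and 170 CPM in wild type. Its libraries overlapped, with a 95% interval of the log2 fold change of -0.07 to 0.18 (limma adjusted p = 0.5).

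Beside the rise of Cldn7, Ocln, Tjp1 and Tjp3, the 5 markers of lung epithelium summed to 533 to 636 CPM in the knockout and 490.5 to 532 CPM in wild type, without overlap of the sums. Of those 5, 1 was called, Epcam, which was higher (log2 fold change 0.34, limma adjusted p = 0.00187), and Nkx2-1, Krt8, Krt18 and Cdh1 were not. Fewer cells of a type and less RNA per cell cannot be told apart in whole lung, and the part of cell makeup in these results was not tested.

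**Figure D3:**
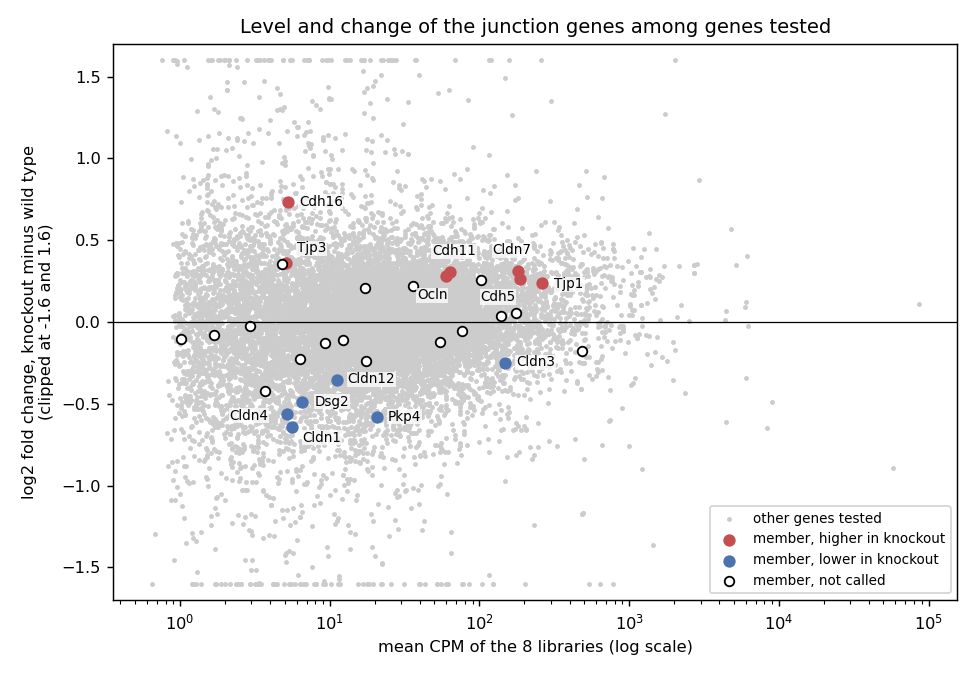
Mean CPM of the 8 libraries (log axis) against the log2 fold change, knockout minus wild type, for other genes tested (grey, clipped at -1.6 and 1.6) and the 30 tested junction genes (large points). Members that rose are red, members that fell are blue and those not called are open, and all lie between -0.64 and 0.73.

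Other tight junction genes, taken from a list of scaffolds and membrane partners, also split. Of 32 tested, 5 rose and 6 fell, 34.4% beside 30.9% of all genes. Both other MARVEL genes of tight junctions rose as Ocln did. Marveld2, tricellulin, which closes the corners where 3 cells meet, had 16, 13.7, 13.1 and 12.8 CPM in the knockout, against 8.79, 10.3, 9.93 and 9.94 CPM in wild type (log2 fold change 0.49, SE 0.10, limma adjusted p = 0.00346). Marveld3 rose by 0.35 on the log2 scale (limma adjusted p = 0.0168), a call that ended without knockout replicate 3 or wild type replicate 1 (adjusted p across alternatives between 0.0069 and 0.0523). Lsr, angulin-1, which recruits tricellulin to those corners, had 118, 132, 147 and 129 CPM in the knockout, against 89.2, 90, 98.3 and 92.5 CPM in wild type (log2 fold change 0.50, SE 0.07, limma adjusted p = 0.000575).

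The falls in that list included larger changes. Cxadr, the coxsackievirus and adenovirus receptor, an adhesion molecule of epithelial junctions, had 82.9, 85.5, 86.8 and 91.3 CPM in the knockout, against 148, 142, 152 and 129.95 CPM in wild type. It fell by 0.72 on the log2 scale (limma adjusted p = 2.25e-05, SE 0.06), with every knockout library far below every wild type library. Marveld1, a MARVEL protein not confined to junctions, fell by 0.99 (limma adjusted p = 7.54e-05, SE 0.10), and the scaffold gene Magi3 by 0.53 (limma adjusted p = 0.00131, SE 0.09). Marveld2 and Marveld3 were named for their kinship to Ocln after values were seen.

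The cadherins that passed the test rose. Of 8 tested, Cdh16, Cdh11 and Cdh5 rose, none fell and 5 were not called. Those called were 37.5%, beside 30.9% of all genes (16.6% higher). Cdh16, kidney-specific cadherin, first described in renal tubules, had 4.97, 9.13, 7.8 and 5.15 CPM in the knockout, against 3.59, 4.36, 3.75 and 3.33 CPM in wild type. The knockout libraries formed a higher pair (replicates 2 and 3) and a lower pair (1 and 4), and the lower pair was still above wild type. Cdh16 rose by 0.73 on the log2 scale (1.66-fold, limma adjusted p = 0.0113, SE 0.18), the largest fold change of the members.

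Cdh5, VE-cadherin of endothelial adherens junctions, had 189, 233, 206 and 190 CPM in the knockout, against 158, 171, 195 and 158 CPM in wild type. Wild type replicate 3 lay inside the knockout range. Cdh5 rose by 0.26 on the log2 scale (limma adjusted p = 0.0426, SE 0.09), a call that ended on leaving out knockout replicate 2 or 3, or any of wild type replicates 1, 2 or 4 (adjusted p across alternatives between 0.0138 and 0.112). Both Cdh5 and Cldn5 are endothelial genes, a pair chosen after values were seen. The ratio of Cldn5 to Cdh5 was 2.48, 2.1, 2.1 and 2.29 in the knockout, against 3.31, 3.25, 2.54 and 3.09 in wild type, with knockout replicate 1 just below wild type replicate 3 and with no test. The 8 endothelial markers, both genes included, summed to 1311 to 1472 CPM in the knockout and 1256 to 1382 CPM in wild type. Of those 8, 3 were called higher (Tie1, Emcn and Cdh5 itself) and 0 lower. Cldn5 had the highest level of the 8, so the list is not independent of the pair. The part of these markers in the values of Cdh5 and Cldn5 was not tested.

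**Figure D4:**
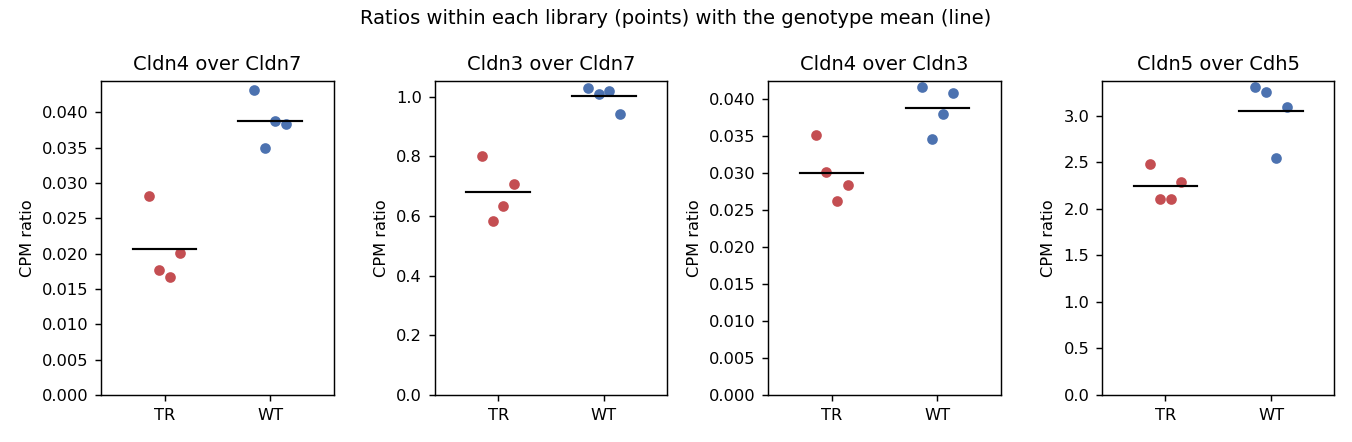
Ratio of CPM values of 2 genes within each library, with points for the 4 knockout (TR, left) and 4 wild type (WT, right) libraries and a line for the genotype mean. Cldn4 over Cldn7, Cldn3 over Cldn7 and Cldn5 over Cdh5 are lower in all knockout libraries than in any wild type library, and Cldn4 over Cldn3 overlaps.

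Cdh11, the cadherin of fibroblasts and other mesenchymal cells, had 58, 69.2, 81.6 and 73.8 CPM in the knockout, against 55.4, 60, 58.5 and 52.6 CPM in wild type. Knockout replicate 1 lay among the wild type libraries and the other 3 above them. Cdh11 rose by 0.31 on the log2 scale (limma adjusted p = 0.0324, SE 0.10). The call ended on leaving out knockout replicate 2, 3 or 4, or any of wild type replicates 1, 3 or 4 (adjusted p across alternatives between 0.00385 and 0.0914). The 5 fibroblast markers summed to 1194 to 1657 CPM in the knockout and 1207 to 1512 CPM in wild type. Of those 5, 1 was called higher and 0 lower, namely Pdgfra, with a log2 fold change of 0.50 (limma adjusted p = 9.63e-05) and no overlap. The part of these markers in the values of Cdh11 was not tested.

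Cdh1, E-cadherin, the main adhesion protein of epithelial cells, had 142, 158, 147 and 117 CPM in the knockout, against 132, 148, 141 and 125 CPM in wild type. The libraries overlapped fully, with a 95% interval of the log2 fold change of -0.16 to 0.24 (limma adjusted p = 0.776). Cdh2, N-cadherin of mesenchymal, neural and heart muscle cells, had 6.62, 7.91, 4.69 and 4.46 CPM in the knockout, against 6.4, 6.67, 7.22 and 7.05 CPM in wild type. The knockout libraries lay on both sides of wild type (log2 fold change -0.23, 95% interval -0.58 to 0.13, limma adjusted p = 0.313). Cdh13, T-cadherin, which has no cytoplasmic tail and binds adiponectin, averaged 18.5 ± 3.57 CPM in the knockout and 15.7 ± 0.81 CPM in wild type. It was called only without knockout replicate 4, its lowest knockout library (adjusted p across alternatives between 0.0174 and 0.478). P-cadherin (Cdh3) averaged 0.945 ± 0.11 CPM in the knockout and 1.08 ± 0.363 CPM in wild type, and R-cadherin (Cdh4) 1.63 ± 0.3 CPM in the knockout and 1.76 ± 0.396 CPM in wild type. Neither was called.

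Inside the cell cadherins bind catenins. Of 14 tested genes of catenins and the adherens plaque, nectins included, 1 rose and 3 fell, 28.6% beside 30.9% of all genes. The nectin gene Pvrl3, now Nectin3, had 62.6, 55.5, 46.3 and 45.3 CPM in the knockout, against 90.2, 88.7, 77.9 and 80.7 CPM in wild type. No libraries overlapped, and Pvrl3 fell by 0.69 on the log2 scale (limma adjusted p = 0.000709, SE 0.10). Ctnnd2, a delta catenin best known in neurons, fell by 0.58 from a low level (limma adjusted p = 0.0345), which ended on leaving out knockout replicate 3 or 4, or any of wild type replicates 1, 2 or 3 (adjusted p across alternatives between 0.013 and 0.0938).

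Desmosomal cadherins and plakophilins fell where they passed the test. Of 4 tested, Dsg2 and Pkp4 fell and Pkp2 and Pkp3 were not called. With so few genes, 50% called is a loose share to set beside 30.9% of all genes. Dsg2, the desmoglein of simple epithelia and heart muscle, had 7.22, 5.48, 4.42 and 4.53 CPM in the knockout, against 6.34, 8.23, 7.74 and 8.53 CPM in wild type. Knockout replicate 1 lay within the wild type range. Dsg2 fell by 0.49 on the log2 scale (limma adjusted p = 0.0325, SE 0.15). Its call ended with the replicate number as a block and on leaving out knockout replicate 2, 3 or 4, or any of wild type replicates 2, 3 or 4 (adjusted p across alternatives between 0.00535 and 0.0895).

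Pkp4, an armadillo protein of adherens junctions and the cell cortex, had 19.3, 19.8, 12.1 and 14.8 CPM in the knockout, against 23.9, 21.5, 22.5 and 30.8 CPM in wild type. All knockout libraries were below wild type, knockout replicates 3 and 4 by the widest margin. Pkp4 fell by 0.58 on the log2 scale (limma adjusted p = 0.0177, SE 0.16), a call that ended without wild type replicate 4, its highest library (adjusted p across alternatives between 0.00216 and 0.0509). Pkp2, the plakophilin of heart and simple epithelia, had 44.8, 46.1, 35.8 and 30.1 CPM in the knockout, against 29.2, 33.6, 39.1 and 31.4 CPM in wild type, and the genotypes overlapped (limma adjusted p = 0.242). Pkp3, a plakophilin of most epithelia, averaged 11.9 ± 1.54 CPM in the knockout and 12.8 ± 1.46 CPM in wild type (limma adjusted p = 0.493).

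Both knockout replicates 1 and 2 were above both replicates 3 and 4 for 10 of the 31 members, a pattern noted after values were seen. These were Cdh2, Dsg2, Pkp2, Pkp4 and the connexin gene Gjc1, and also Ocln, Tjp1, F11r, Cldn5 and Cldn25. The order was the opposite for 6 of the 31. Over all genes tested, the shares were 26.3% and 12.6%. The 8 cardiac muscle markers, which mouse lung holds in its pulmonary veins, summed to 431, 399.97, 259.97 and 345 CPM in knockout replicates 1 to 4, against 304, 301, 459.6 and 448 CPM in wild type replicates 1 to 4. The sum was also higher in knockout replicates 1 and 2 than in 3 and 4. Of the 7 tested, 1 was called higher (Myh6) and 2 lower (Actn2 and Nppa). Nppa had 0 to 0.14 CPM in the knockout and 32.2 to 90 CPM in wild type. The sums of the 2 genotypes therefore differ in makeup. None of the 8 was at 0 in every library, and the part of these markers in the values of the members was not tested. The desmosomal plaque list had 1 of 4 called, 25% beside 30.9% of all genes. It was Perp, a tetraspan protein of desmosomes, which was higher (log2 fold change 0.31, limma adjusted p = 0.0113). Perp was named after its value was seen. The other 3 genes of the list were the plakins Dsp, Ppl and Evpl. Dsc2, the desmocollin that pairs with Dsg2, had 0.07, 0.41, 0.35 and 0.61 CPM in the knockout, against 0.36, 0.38, 0.17 and 0.32 CPM in wild type. Its mean of 0.334 CPM put it outside the members, and its values overlapped at a few reads per library.

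None of the connexins described here passed the test. Of the 2 connexins left out of the set, Gja5 was called higher (log2 fold change 0.59, limma adjusted p = 0.00107). Gja4 was not called (limma adjusted p = 0.262). Of the 4 described here 3 were tested, with 0 called by limma, edgeR or DESeq2, and 1 (Gjb6) with an unadjusted p under 0.05. Gja1, the main connexin of alveolar epithelium and fibroblasts, had 63.3, 85.9, 77.6 and 74.8 CPM in the knockout, against 86.1, 74, 84.2 and 68.8 CPM in wild type. The genotypes overlapped almost fully, with a 95% interval of the log2 fold change of -0.28 to 0.16 (limma adjusted p = 0.701). Gjc1, a connexin of smooth muscle and the conduction system of the heart, had 19.4, 19.1, 12.5 and 13.4 CPM in the knockout, against 15.9, 21.2, 20.4 and 17.8 CPM in wild type. Knockout replicates 3 and 4 were the lowest of all 8 (95% interval of the log2 fold change -0.57 to 0.10, limma adjusted p = 0.258).

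Gjb2 and Gjb6, neighbours in the genome, encode connexins of epithelia that can join in 1 channel. Gjb6 had 5.9, 4.19, 5.8 and 6.07 CPM in the knockout, against 4.37, 4.36, 3.58 and 4.3 CPM in wild type. Knockout replicate 2 was the exception among higher knockout libraries. The log2 fold change of Gjb6 was 0.36 (95% interval 0.06 to 0.65, limma adjusted p = 0.0633), and it passed without knockout replicate 2 (adjusted p across alternatives between 0.0146 and 0.156). Gjb2 had 1.99, 0.95, 1.24 and 1.15 CPM in the knockout, against 0.78, 0.81, 0.75 and 0.83 CPM in wild type, without overlap. It did not reach 1 CPM in 4 libraries and was not tested in the main comparison. With no filter on low values, where 28.3% of all genes were called and 15.2% were higher, its log2 fold change was 0.47 (limma adjusted p = 0.0571, SE 0.17).

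Among 14 tested transcription factors known to act on epithelial junction genes, 3 rose and 1 fell, 28.6% beside 30.9% of all genes. The repressors of Cdh1 transcription Zeb1 and Zeb2 rose, by 0.20 and 0.34 on the log2 scale (limma adjusted p = 0.0346 and 0.00485), and so did Grhl2, an activator of epithelial junction genes, by 0.30 (limma adjusted p = 0.0173). The call of Zeb1 ended with DESeq2, median-ratio scaling or the replicate number as a block, and on leaving out knockout replicate 1, 2 or 4, or any of wild type replicates 1, 2 or 3 (adjusted p across alternatives between 0.0317 and 0.101). That of Grhl2 ended without knockout replicate 3 or wild type replicate 2 (adjusted p across alternatives between 0.015 and 0.0545). The E protein gene Tcf3 fell by 0.34 (limma adjusted p = 0.022), a call that ended without knockout replicate 3 or wild type replicate 1 or 3 (adjusted p across alternatives between 0.00234 and 0.0652). These 4 were named after their values were seen. The Snail genes Snai1 and Snai2 were not called. Over all lists of other junction genes, 10 of 65 tested rose and 10 fell, 30.8% in all, beside 30.9% of all genes.

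**Figure D5:**
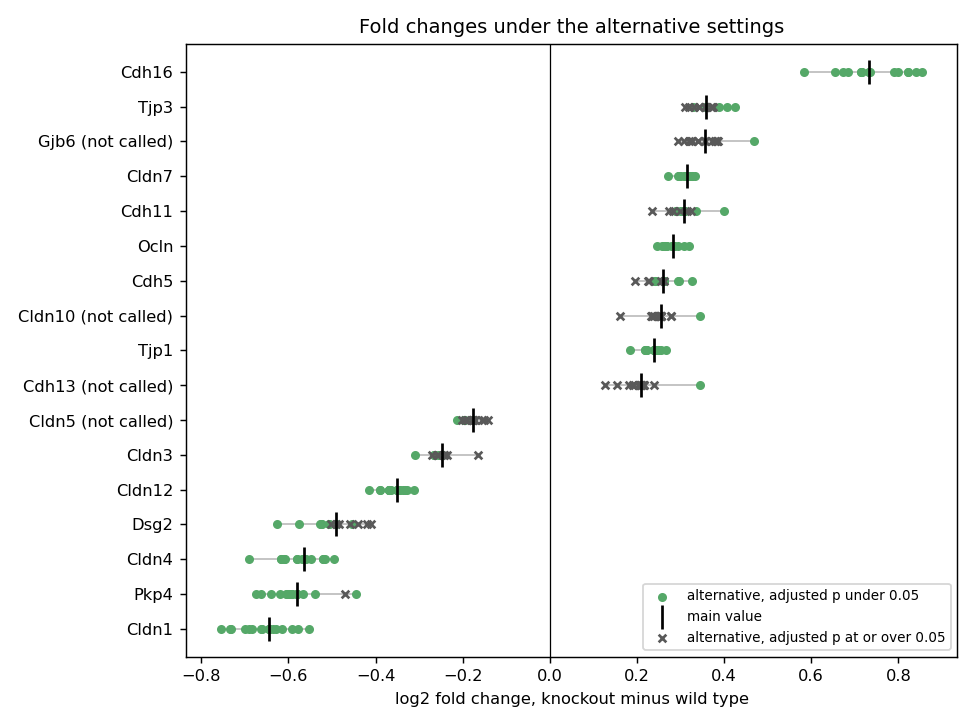
Log2 fold change (knockout minus wild type) of the 13 called junction genes and of 4 others that passed under at least 1 alternative. Black bars mark the main value, green points alternatives with an adjusted p under 0.05 and crosses those at or above it. No gene shown crosses 0, and Cdh16, Cldn7, Ocln, Tjp1, Cldn12, Cldn4 and Cldn1 have green points only.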

How the data were processed

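Whole lungs of 4 triply n/i/eNOSs-/- and 4 wild type mice were profiled by CAGE, with groups and replicate numbers from the labels. Tools listed in the submitters' processing notes are HISAT2 2.0.5, BWA 0.7.12-r1039 and edgeR, with the build mm9. How tags were assigned to genes, and with what use of strand, is not stated in the labels or headers. The authors deposited CPM values with 2 decimals, and each library adds up to 1000000 within rounding. Whole reads were recovered from the CPM steps: 100% of values below 1000 CPM came out whole within 0.1 reads. A gene at 3 reads has 0.161 to 0.231 CPM, a floor that covers counting error only.

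The main test was limma's moderated test (limma 3.58.1, R 4.3.3) with a variance trend and genotype as the only term. It used log2(CPM + 0.5) of the 14065 genes that reached 1 CPM in 4 libraries or more. Adjusted p are two-sided Benjamini-Hochberg values over all genes tested, and a call is an adjusted p under 0.05. The test was checked on simulated data. Alternatives were other pseudocounts, filters and scalings, a replicate block, each library left out, and edgeR 4.0.16 and DESeq2 1.42.0 on the recovered reads, which called 4573 and 4455 genes.

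The members and lists were chosen with earlier results of these data known. Some rows that match the rule are not reported here, and counts of members leave them out. Full values are given for called members with a log2 fold change of at least 0.5 in size and for a set of well known junction genes. Called genes of other lists were named from the same size, up to 4 per list by smallest adjusted p, unless stated. Names and overlaps come from GENCODE M21 (GRCm38), and no copy of at least 97% identity over 75 nt was found with blastn 2.17.0 in the first 200 nt of the members' transcripts. Promoters come from RefSeq (GRCm38.p6), not the build of the reads.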

Additional observations from a re-analysis of the deposited data

Results flagged for a closer look

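In 62 groups of 4 libraries, 31 members in each genotype, 4 values stood apart from the other 3 by more than Dixon's 95% limit, where chance flags about 1 group in 20. Cldn7 was 219.11 CPM in knockout replicate 3, above the other knockout libraries. Cldn8 was 3.8 CPM in the same library, also the highest of its genotype. Gjb6 was lowest at 4.19 CPM in knockout replicate 2, and lowest at 3.58 CPM in wild type replicate 3.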

How the results depend on the processing

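Under other pseudocounts, filters, scalings and tests and the replicate block, 6 to 7 junction genes were higher and 6 to 7 lower. Leaving out 1 library gave 4 to 7 higher and 3 to 6 lower. The count higher was 4 without knockout replicate 3 or wild type replicate 1, and the count lower was 3 without wild type replicate 4. Without knockout replicate 1 it was 6 higher and 6 lower. Genes of the other junction lists numbered 6 to 10 higher and 5 to 11 lower with 1 library left out, with 6 higher and 6 lower without wild type replicate 2 and 5 lower without wild type replicate 1 or knockout replicate 3. None of the 13 called members changed sign. Of the 17 not called, 5 did when 1 library was left out: the log2 fold change ranged from -0.018 to 0.127 for Cdh1, -0.194 to 0.027 for Cdh4, -0.216 to 0.035 for Cdh3, -0.122 to 0.024 for Gja1 and -0.11 to 0.15 for Cldn23. The median of all genes stayed between -0.01 and 0.04. Deviations from the genotype mean had correlations of -0.003 to 0.065 between same-numbered libraries, and of -0.134 to 0.12 between the others. With 4 libraries per genotype, these cannot tell whether the numbers pair the animals. The replicate block gave 6 higher and 6 lower. Members near 1 CPM rest on few reads, which limits what their values can show.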

Other observations

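A group of beta connexin genes, chosen after their values were seen, had a higher mean in the knockout in 4 of 4 rows (Gjb1, Gjb2, Gjb5 and Gjb6). Gjb2 and Gjb5 did not overlap between genotypes, as was so for 31.2% of all genes tested. Neither of them passed the filter of that set, so the share is of genes with higher levels. Only Gjb6 was in the main test, and it was not called. A trend of the family was not tested. Gjb5, a connexin of skin and placenta, had 0.73, 0.68, 0.97 and 0.61 CPM in the knockout, against 0.36, 0.38, 0.35 and 0.45 CPM in wild type. Gjb1, the main connexin of liver, had 0.93, 1.15, 1.79 and 0.77 CPM in the knockout, against 0.54, 0.54, 0.87 and 0.38 CPM in wild type. With no filter on low values, where 28.3% of all genes were called, limma gave an adjusted p of 0.023 for Gjb5 and 0.0476 for Gjb1. The type II cadherin gene Cdh24, also below 1 CPM, had 0.66, 0.88, 0.76 and 1.15 CPM in the knockout, against 0.48, 0.48, 0.29 and 0.58 CPM in wild type (limma adjusted p = 0.0359 with no filter).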
